A study of Mus musculus with 11 samples.

Results

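Major urinary proteins (MUPs) are small lipocalins, barrel-shaped proteins that carry hydrophobic pheromones, and mouse hepatocytes secrete them into the blood for excretion in the urine. The 10 genes described here, Mup1, Mup2, Mup3, Mup7, Mup10, Mup11, Mup12, Mup17, Mup20 and Mup21, were taken by symbol from a liver expression table of 36788 Ensembl genes, in which 48 rows carry a Mup name. The livers came from WT C57BL/6 female mice over 12 weeks of age that were all ovariectomized (OVX) and fed a high-fat diet (HFD). The methods of the study give a mixed genetic background, only partly C57BL/6, for all its mice. One group of 5 mice (FSH replicates 1, 2, 3, 4 and 6) received follicle-stimulating hormone by daily intraperitoneal injection, and 6 mice (saline replicates 1 to 6) received saline. Each library is one liver. The comparison asks which liver transcripts differ in level when FSH is given to mice without ovaries, and here it is read for the MUP family.

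As background, Mup transcription in liver is driven mainly by the pulses of growth hormone that males secrete, through the signal transducer STAT5b, and it is raised further by androgens, thyroid hormone and glucocorticoids. Males therefore make far more MUPs than females, and MUP levels are used as a readout of the male secretion pattern. The proteins keep volatile pheromones in urine marks and release them slowly. Mup20 encodes darcin, the MUP that by itself attracts females to male scent. Mup1 protein has also been linked to glucose metabolism.

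Of the annotated family genes, all but the pseudogene Mup-ps22 lie in one array on chromosome 4, and many of them are near-identical copies. In the GRCm38 annotation (GENCODE M21, the build mm10 that the submitters' processing notes name) the array spans chr4:59956804-62150863, a stretch of 2.19 Mb with 48 family genes, 22 of them protein coding. All 10 members lie on the minus strand, and each has 7 exons except Mup21 with 6. The 7 members Mup1, Mup2, Mup7, Mup10, Mup11, Mup12 and Mup17 share 98.3% to 99.6% of their coding bases with one another. Mup20 shares 90.1% to 91.3% with these 7. Mup3 shares 82.1% to 83.3% with them and Mup21 shares 83.6% to 84.7%, while Mup3 and Mup21 share 94.7% with each other. The following 60-base stretches of exon 2 were chosen as those in which Mup20 differs most from Mup10. They overstate the difference of these 2 over the whole coding sequence, and they do not separate Mup3 from Mup21. Each is coding sequence read 5′ to 3′ on the minus strand from the GENCODE M21 transcripts, with mm10 coordinates and with capitals where a member differs from Mup10.
Mup10 (chr4:60581539-60581598): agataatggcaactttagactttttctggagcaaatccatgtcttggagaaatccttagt
Mup11 (chr4:60661748-60661807): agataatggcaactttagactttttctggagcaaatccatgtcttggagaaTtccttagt
Mup17 (chr4:61595211-61595270): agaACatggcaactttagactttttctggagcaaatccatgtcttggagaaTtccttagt
Mup20 (chr4:62053498-62053557): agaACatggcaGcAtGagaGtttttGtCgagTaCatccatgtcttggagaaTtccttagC
Mup3 (chr4:62086818-62086877): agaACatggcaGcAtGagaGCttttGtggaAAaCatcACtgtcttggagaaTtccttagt
Mup21 (chr4:62150213-62150272): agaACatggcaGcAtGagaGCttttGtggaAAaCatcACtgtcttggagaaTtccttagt
Mup11 differs from Mup10 at 1 position in this stretch, and Mup1, Mup2, Mup7 and Mup12 have the same letters as Mup11. Mup17 differs at 3 positions, Mup20 at 12, and Mup3 and Mup21 at 14 each.

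These differences set how well a sequencing read can be given to one gene. The reads were 100 bases long, so each annotated transcript was cut into all its 100-base windows, and each window was looked up in the transcripts of all other annotated genes. In Mup3 97.1% of windows occur in no other gene, in Mup21 95.5% and in Mup20 61.2%. The rest of the Mup20 windows are shared with 1 gene, the pseudogene Mup-ps19, which was measured at 0 in 9 of 11 libraries and reached at most 0.648 CPM (reads per gene, scaled so that each library has the same total). Mup17 has 40.6% of windows of its own and Mup12 22.5%. The values for Mup11, Mup10, Mup7, Mup1 and Mup2 are 16.5%, 14.6%, 12.9%, 12.8% and 2.66%. In Mup10, 85.0% of windows are shared with Mup22, a gene not analysed here. Mup19, which is not among the 10 genes, has 0 windows of its own and was listed at 54.7 to 1004 CPM. The rule for reads that fit several genes is not given in the sources used here. Mup3, Mup20 and Mup21 are therefore measured as single genes, whereas the division of reads among the other 7 members is uncertain. A read pair covers more sequence than one window, which can make more of each transcript distinguishable than these shares say.

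**Figure D1:**
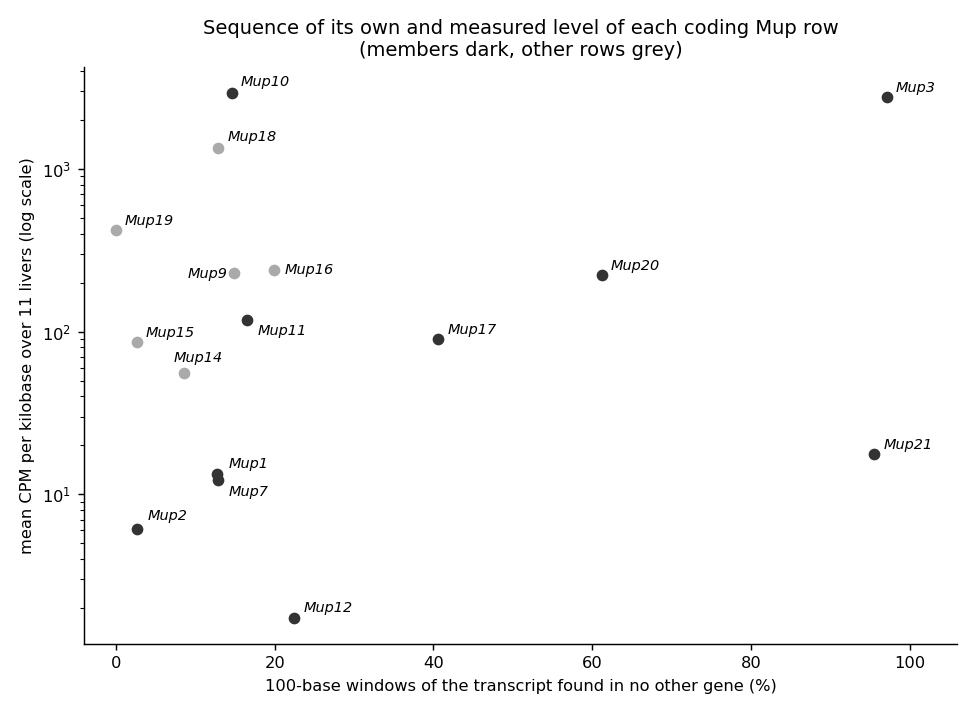
Share of 100-base windows found in no other gene (x axis, %) against the mean level over 11 livers (y axis, CPM per kilobase of transcript, log scale) for the 16 coding Mup rows tested, members dark and other rows grey. Mup3 (97.1%), Mup21 (95.5%) and Mup20 (61.2%) stand to the right, and 12 of the other 13 rows have at most 22.5% sequence of their own, with Mup17 (40.6%) between.

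The sequence around the annotated start site follows the same split. Of the 10 members, 7 have an entry in the RefSeq promoter table (GRCm38), namely Mup2, Mup3, Mup7, Mup10, Mup11, Mup17 and Mup21. The 100 bases ending with the box TATATAA are printed for 2 of the near-identical members and for Mup3 and Mup21, with the box in capitals, 5′ to 3′ on the minus strand of mm10.
Mup10 (chr4:60582179-60582278): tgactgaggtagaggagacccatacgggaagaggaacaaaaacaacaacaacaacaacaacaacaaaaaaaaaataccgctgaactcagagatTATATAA
Mup11 (chr4:60662391-60662490): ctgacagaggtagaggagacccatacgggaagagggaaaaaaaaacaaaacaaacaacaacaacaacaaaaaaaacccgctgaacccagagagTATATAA
Mup3 (chr4:62087322-62087421): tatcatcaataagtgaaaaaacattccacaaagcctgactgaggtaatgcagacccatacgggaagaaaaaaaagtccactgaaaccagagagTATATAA
Mup21 (chr4:62150843-62150942): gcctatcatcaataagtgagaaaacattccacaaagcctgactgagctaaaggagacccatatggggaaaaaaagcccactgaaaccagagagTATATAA
In the GENCODE annotation the last 21 bases of each printed window, the box included, lie inside the gene, because GENCODE places these 4 starts upstream of the box. Over these 100 bases Mup10 and Mup11 are 87.1% identical, Mup3 and Mup21 87.4%, and Mup10 and Mup3 53.5%. The letters TATATAA, searched on both strands of the 300-base promoter entries, occur in 6 of the 7 member entries and in 3.24% of all 32851 entries. The STAT motif TTCNNNGAA occurs in 0 of the 7 and in 8.3% of all. These are matches of letters in short windows and describe no binding.

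The libraries held 10801891 to 19909327 reads, and 3 reads, the limit that a count of 0 allows, correspond to 0.151 to 0.278 CPM; such limits cover counting error only. No pair of libraries from the same group agreed within sampling noise, and pairs across the groups were not examined. Hepatocyte markers (Alb, Ttr, Apoa1, Cyp2e1, Serpina1c and Cps1) summed to 99670 to 118500 CPM in the FSH livers and 95380 to 121800 CPM in the saline livers, with 0 of 6 called. Salivary and lacrimal glands also make MUPs, and 4 of their 5 markers (Smr3a, Prol1, Bpifa2 and Dcpp1) were at 0 in every library. The remaining marker, Amy1, is also a liver transcript. In whole liver, fewer hepatocytes and less RNA per hepatocyte cannot be told apart.

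Mup transcripts were abundant in these female livers. All Mup rows together took 0.379% to 1.107% of a library after FSH and 0.598% to 1.336% after saline. Mup10 and Mup3 carried 90.5% to 94.3% of the summed CPM of the 10 members, with a median of 92.8% over the 11 libraries. Levels between genes are compared as CPM per kilobase of transcript (mean ± SD, n = 11). Mup10 stood at 2932 ± 1243 and Mup3 at 2755 ± 927, and Mup10 was the higher of the 2 in 5 of 11 libraries. The order of these 2 differed between the groups. Mup10 had a mean of 2245 and Mup3 of 2756 after FSH, against 3505 and 2754 after saline. Mup20 stood at 223 ± 95.1, below Mup3 in 11 of 11 libraries with no overlap of their ranges. It was followed by Mup11 at 117 ± 79.0, Mup17 at 89.4 ± 86.4, Mup21 at 17.6 ± 4.84, Mup1 at 13.4 ± 10.7, Mup7 at 12.3 ± 7.41, Mup2 at 6.08 ± 2.00 and Mup12 at 1.75 ± 1.20. The step from Mup3 to Mup20 was the one step in this order at which the ranges of neighbouring genes did not overlap. Mup20 was above Mup11 in 10 of 11 libraries, Mup2 was above Mup12 in 11 of 11, and Mup1 was above Mup7 in 6 of 11. Mup1 and Mup7 also changed order, with means of 15.5 and 8.76 after FSH and 11.6 and 15.3 after saline.

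Mup20 (ENSMUSG00000078672, chr4:62050234-62054158), the darcin gene, was the 1 member called, and its level was lower after FSH. Its CPM values were 128, 244, 115, 104 and 122 in FSH replicates 1, 2, 3, 4 and 6, from 1387 to 3309 reads. In saline replicates 1 to 6 they were 235, 278, 399, 241, 210 and 198, from 2264 to 4565 reads. FSH replicates 1, 3, 4 and 6 lay below all 6 saline livers, and FSH replicate 2 lay among the saline values, so the groups overlapped through 1 liver. The mean was 143 ± 57.4 CPM (SD, n = 5) after FSH and 260 ± 73.6 CPM (SD, n = 6) after saline. On the log2(CPM + 0.5) scale the difference FSH minus saline was -0.90 (95% interval -1.34 to -0.45, limma adjusted p = 0.0135 over 12733 genes tested). The differences of Mup17, Mup7, Mup11 and Mup10, from -1.07 to -0.71, had wider intervals and were not called. An exact two-sided permutation test (462 arrangements of the 11 livers) gave p = 0.0152, where 0.00217 is the smallest p this design allows. The adjusted p stayed under 0.05 in 24 of 24 alternative settings. The fall did not pass the second threshold of the study, an absolute log2 fold change over 1, except in 2 of those settings. Leaving out FSH replicate 2 was one of them and gave -1.11 (limma adjusted p = 0.0008).

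**Figure D2:**
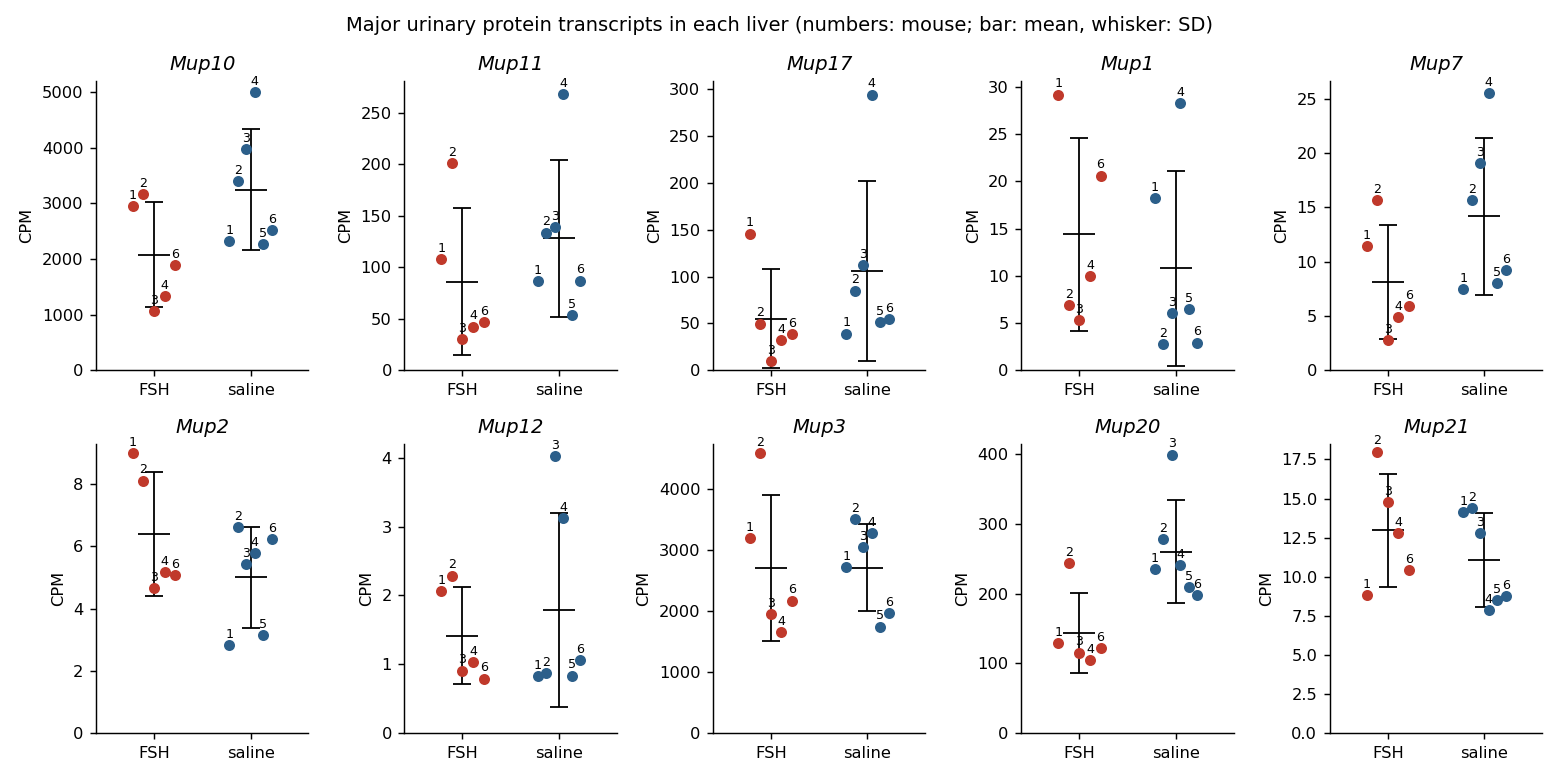
CPM of the 10 members in every liver (points numbered by replicate, red FSH, n = 5, blue saline, n = 6), with the group mean as a bar and the SD as whiskers; each panel has its own axis from 0. Mup20 lies at 104 to 128 CPM in 4 of 5 FSH livers, below the lowest saline liver at 198 CPM, and the groups overlap in all 10 panels.

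This 1 call among 10 members has to be read against the table as a whole, where 1350 of 12733 genes tested were called (10.6%), 4.41% of genes lower after FSH and 6.19% higher. The share of members called was thus at the background, and it is no result about the family. At an unadjusted p under 0.05 stood 3 of 10 members and 25.1% of all genes. Past both thresholds stood 0 of 10 members, while 1.83% of all genes passed both. Groups that did not overlap in CPM were found for 0 of 10 members and 6.67% of all genes. The direction was lower after FSH for 7 members and higher for 3, and the median log2 fold change of the members was -0.42, beside 0.02 for all genes tested.

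Mup3 (ENSMUSG00000066154, chr4:62083476-62087342), which shares few of its windows with any gene, gave no call. Its CPM values were 3191, 4592, 1948, 1657 and 2170 in FSH replicates 1, 2, 3, 4 and 6 and 2721, 3507, 3052, 3273, 1744 and 1964 in saline replicates 1 to 6. The highest liver (FSH replicate 2) and the lowest (FSH replicate 4) were both FSH livers. The log2 difference was -0.06 with a 95% interval of -0.59 to 0.48 (limma adjusted p = 0.923), and its sign turned in 4 alternatives that left out 1 liver. Mup21, the neighbour of Mup3 in sequence, ranged from 8.84 to 18 CPM after FSH and from 7.84 to 14.4 CPM after saline. Its log2 difference was 0.22 (95% interval -0.20 to 0.64, limma adjusted p = 0.549).

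Mup10 (ENSMUSG00000078680, chr4:60578260-60582199) was the most abundant of the near-identical members. FSH replicates 1, 2, 3, 4 and 6 gave 2953, 3163, 1067, 1331 and 1891 CPM, and saline replicates 1 to 6 gave 2316, 3402, 3977, 5006, 2269 and 2525 CPM. FSH replicates 3, 4 and 6 lay below all saline livers, and FSH replicates 1 and 2 lay within the saline range. The log2 difference of -0.71 (95% interval -1.31 to -0.10) had an unadjusted p of 0.0249 and did not pass adjustment (limma adjusted p = 0.130; exact permutation p = 0.0801). In 24 alternatives the adjusted p of Mup10 ranged from 0.0622 to 0.311.

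The other near-identical members were measured at lower levels. Mup11 ranged from 30.3 to 201 CPM after FSH and from 53.4 to 268 CPM after saline, with a log2 difference of -0.75 (limma adjusted p = 0.334). For Mup17 the ranges were 9.52 to 146 CPM and 39.0 to 294 CPM, and the log2 difference was -1.07 (limma adjusted p = 0.268). Mup7, at 2.78 to 15.6 CPM and 7.47 to 25.5 CPM, had a log2 difference of -0.85 (limma adjusted p = 0.190). In these 3 members FSH replicates 3, 4 and 6 lay below every saline liver, and saline replicate 4 was the highest liver in all 3. Mup1, at 5.27 to 29.2 CPM after FSH and 2.76 to 28.3 CPM after saline, had a log2 difference of 0.61 (limma adjusted p = 0.555). Mup2 (4.64 to 8.99 and 2.82 to 6.62 CPM) stood at 0.34 and Mup12 (0.789 to 2.29 and 0.830 to 4.02 CPM, 9 to 46 reads) at -0.13, with limma adjusted p of 0.395 and 0.862. The 95% intervals of these differences ran from -0.15 to 0.83 for Mup2 and from -2.30 to 0.16 for Mup17.

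Of the other Mup rows, 10 passed the filter of a mean of 0.5 CPM, 6 coding genes and 4 pseudogenes. All 6 coding rows (Mup9, Mup14, Mup15, Mup16, Mup18 and Mup19) had a lower mean after FSH, with log2 differences from -1.48 in Mup19 to -0.80 in Mup14. Of them 0 of 6 passed adjustment (limma, adjusted p from 0.0975 to 0.349), beside 10.6% of all genes. The unadjusted p was under 0.05 in 5 of the 6, beside 25.1% of all genes, and these rows share windows, so they are not separate observations. Mup18, the most abundant of them, lay between 366 and 1681 CPM after FSH and between 890 and 1978 CPM after saline. All 4 pseudogene rows had a higher mean after FSH, and Mup-ps16 was called with a log2 difference of 0.60 (limma adjusted p = 0.0481). This was 1 call of 4, beside 10.6% of all genes, and so small a count is no result about the pseudogenes. Mup-ps16 ranged from 6.42 to 14.8 CPM after FSH and from 5.28 to 8.14 CPM after saline, and it kept its call in 10 of 24 alternatives. The differences of Mup-ps12, Mup-ps14 and Mup-ps13 were 0.93, 0.88 and 0.31, and none of these 3 was called (limma, adjusted p = 0.0963, 0.0753 and 0.444), although Mup-ps12 was called in 3 of 24 alternatives and Mup-ps14 in 4 of 23. Mup-ps16 has 36.6% of windows of its own, Mup-ps14 43.9%, Mup-ps12 56.4% and Mup-ps13 75.8%.

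**Figure D3:**
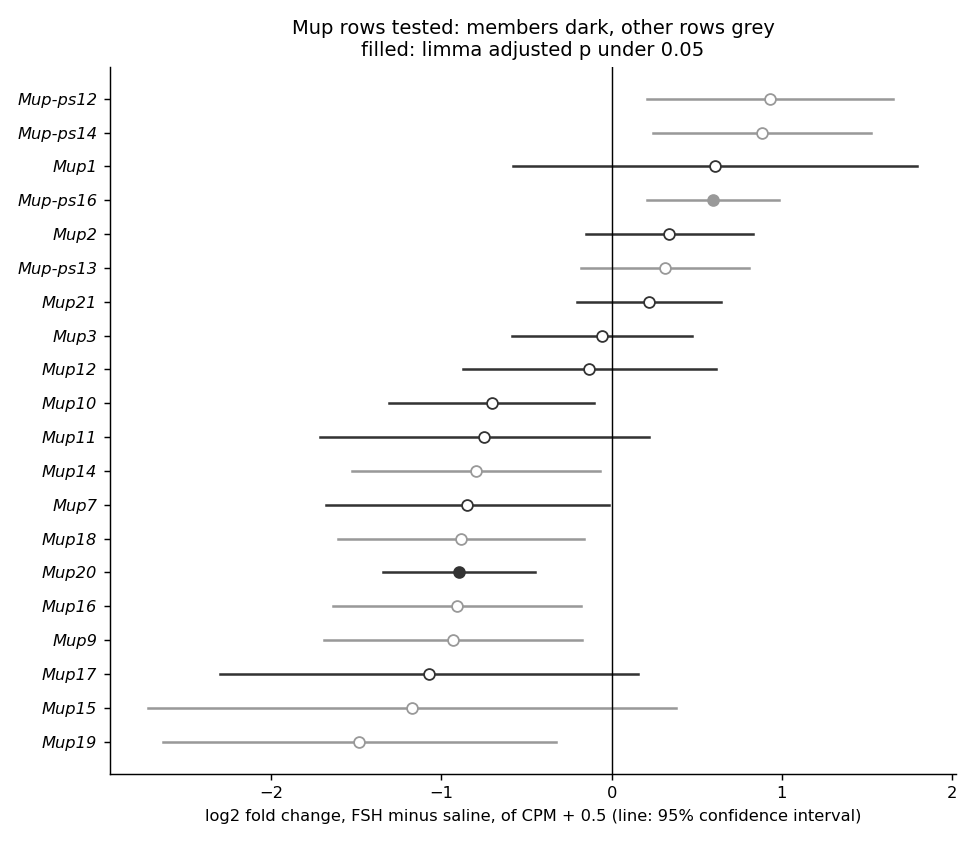
Log2 fold change, FSH minus saline, of CPM + 0.5 (x axis) for the 20 Mup rows tested (y axis), with 95% confidence intervals from limma; dark marks are members, grey marks other rows, and filled marks have an adjusted p under 0.05. Mup20 (-0.90) and Mup-ps16 (0.60) are filled, and 13 rows lie below 0, all of them coding.

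A sum over copies depends less than single rows on how reads are divided among them, so summed CPM was also read in every liver. The members share windows with coding rows outside the list, so their sum still depends in part on that division. The summed CPM of the members was 6587, 8301, 3198, 3201 and 4311 in FSH replicates 1, 2, 3, 4 and 6. In saline replicates 1 to 6 it was 5440, 7446, 7727, 9153, 4355 and 4856. FSH replicates 3, 4 and 6 were below every saline liver, whereas FSH replicates 1 and 2 were above 3 and 5 of the 6. The medians were 4311 and 6443 CPM and the means 5120 ± 2253 (SD, n = 5) and 6496 ± 1890 CPM (SD, n = 6), and the groups overlapped. The log2 difference of the sums was -0.40, and it was -0.26 without FSH replicate 3 or without FSH replicate 4 and -0.60 without FSH replicate 2. The 15 coding rows other than Mup3, Mup4, Mup5, Mup6, Mup20 and Mup21 summed to 1695 to 6206 CPM after FSH (median 3208) and 4009 to 9824 CPM after saline (median 5888), again with overlap. The means of this sum were 3770 ± 1986 CPM (SD, n = 5) after FSH and 6261 ± 2337 CPM (SD, n = 6) after saline.

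Levels varied between livers of one group, and most members varied together. After centring log2(CPM + 0.5) on each group's mean, the 21 pairs of near-identical members had a median Pearson r of 0.75 over the 11 livers, from -0.14 to 0.98. Mup10 with Mup7 stood at 0.98 and Mup10 with Mup11 at 0.94. These rows share libraries and most of their windows, so these values are descriptions only. Mup3 and Mup20, which share no windows with Mup10, had r of 0.84 and 0.66 with Mup10 and 0.80 with each other. Mup1 stood apart, with r from -0.49 with Mup21 to 0.56 with Mup17, as did Mup21, with r from -0.49 to 0.56. Outside the family, the 5 genes with the highest r to the summed members among 7103 genes of at least 10 CPM were Elovl3 (0.92), 4833420G17Rik (0.92), Slco1a1 (0.91), Slc35b2 (0.90) and Tmem192 (0.90). Elovl3, a fatty acid elongase, and Slco1a1, an organic anion transporter, are also on the list of male-biased liver genes used here.

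**Figure D4:**
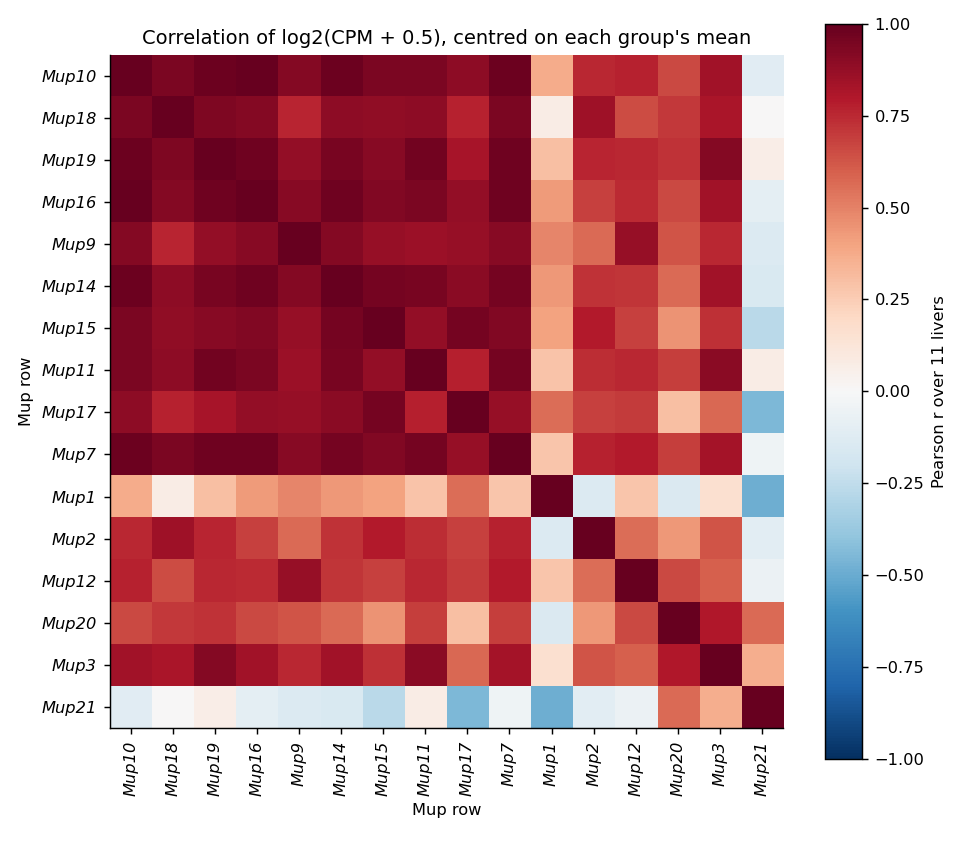
Pearson r over 11 livers between 16 coding Mup rows (both axes), computed on log2(CPM + 0.5) centred on each group's mean and coloured from -1 (blue) to 1 (red). A block of rows around Mup10 is red throughout (Mup10 with Mup7 0.98), whereas Mup1 and Mup21 are pale or blue against most rows.

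Within one liver the ratio of 2 transcripts does not depend on the library total. Mup20 as a percentage of Mup3 was 4.02, 5.32, 5.92, 6.27 and 5.60 in FSH replicates 1, 2, 3, 4 and 6 and 8.63, 7.92, 13.1, 7.37, 12.0 and 10.1 in saline replicates 1 to 6. The groups did not overlap, FSH replicate 2 included. This ratio was chosen after the values had been seen and is given without a test. The share of all ratios between members that separate the groups was not counted. Mup20 as a percentage of Mup10 overlapped between the groups, at 4.35 to 10.8 after FSH and 4.82 to 10.1 after saline. Relative to the 15 summed near-identical coding rows Mup20 also overlapped. It was 2.3% to 6.8% of them after FSH and 2.5% to 5.7% after saline. Mup3 as a percentage of Mup10 was 108 to 183 after FSH and 65.4 to 118 after saline, with overlap through saline replicate 1. Mup20 thus lay apart between the groups relative to Mup3 and overlapped relative to Mup10.

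**Figure D5:**
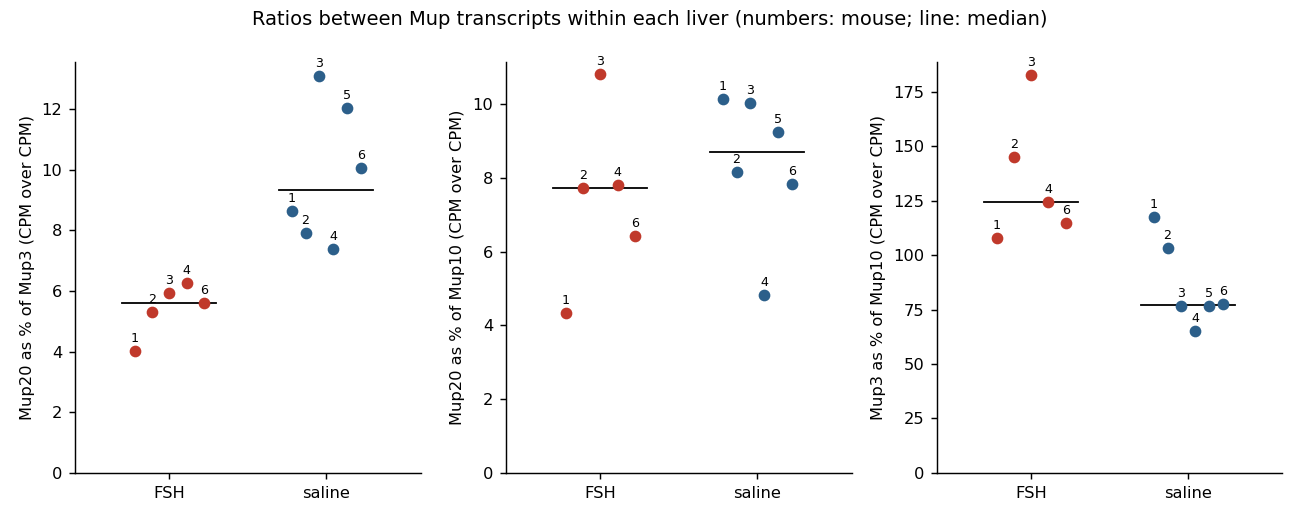
Ratios of CPM within each liver as percentages (y axes) for Mup20 of Mup3, Mup20 of Mup10 and Mup3 of Mup10, with 1 point per liver numbered by replicate (red FSH, n = 5, blue saline, n = 6) and the group median as a line. In the left panel the FSH livers lie at 4.02 to 6.27% and the saline livers at 7.37 to 13.1%, and in the other panels the groups overlap.

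The genes around and upstream of the family were read from lists written with results of these data known. Of the 5 named coding genes on each side of the array, 8 were tested and 0 were called by limma (10.6% of all genes were), with 2 at an unadjusted p under 0.05 (25.1% of all genes). In the growth hormone and STAT5 list, 5 of 12 genes were called against 10.6% of all genes, and its median log2 difference was 0.04. This count was 4 in 11 of 24 alternatives and at most 7. Cux2, a female-biased repressor of male-biased genes, rose by 1.94, from 5.10 ± 2.28 to 19.97 ± 4.09 CPM. Socs2, a STAT5-induced inhibitor of growth hormone signalling, rose by 1.33, and Onecut1, a liver transcription factor, rose by 0.87. Stat5b and Stat5a, the transducers themselves, fell by 0.46 and 0.57. All 5 had limma adjusted p between 0.000111 and 0.0376. The growth hormone receptor Ghr had a difference of 0.13 (limma adjusted p = 0.348), and Bcl6, a male-biased repressor, one of -1.32 (limma adjusted p = 0.0757). Cish had a difference of 1.03 (limma adjusted p = 0.0547). Igf1 stood at 0.06 (limma adjusted p = 0.810) and Igfals at -0.03 (limma adjusted p = 0.910).

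Among 14 factors and receptors known to act on Mup genes, 4 were called, beside 10.6% of all genes, and the median log2 difference was 0.03. The thyroid hormone receptor Thra fell by 0.53, the hepatocyte factors Hnf4a and Foxa3 fell by 0.44 and 0.36, and the estrogen receptor Esr1 rose by 0.47, with limma adjusted p between 0.00386 and 0.0415. The count of calls dropped to 2 in 7 of 24 alternatives, 5 of which left out 1 liver (FSH replicate 1, 2, 3 or 4 or saline replicate 4). The glucocorticoid receptor Nr3c1 (0.21, limma adjusted p = 0.166) did not pass.

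Male-biased liver genes outside the family gave 2 calls of 12 tested, both lower, with a median of -0.22, where 4.41% of all genes were called lower, and so small a count is no result about the list. Selenbp2, a selenium-binding protein, fell by 1.03 from 33.8 ± 10.8 to 16.3 ± 4.31 CPM, and Elovl3 fell by 1.58 from 16.0 ± 6.45 to 5.40 ± 3.67 CPM. Elovl3 was also singled out by the study on these livers and is no independent evidence of direction. Female-biased liver genes gave 5 calls of 21, all higher, with a median of 0.22, where 6.19% of all genes were called higher. They were the thioesterase Acot3 (1.68), the cytochromes Cyp2a4 (0.99) and Cyp17a1 (0.75), the monooxygenase Fmo2 (0.92) and the hepcidin paralog Hamp2 (1.09). All 7 called genes of these 2 lists had limma adjusted p of 0.0165 or less. By sign, 14 of the 21 female-biased genes were higher and 7 were lower, with 0 called lower. Of 9 other lipocalins tested, Lcn2, a siderophore-binding acute-phase protein, was called and fell by 1.36 (limma adjusted p = 0.0046). This 1 call of 9 is at the share of all genes (10.6%) and is no result about lipocalins.

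One measured fact stands beside these values. Dbp, a clock-controlled transcription factor whose level swings over the day, was at 42.6 to 121 CPM in the FSH livers and 3.40 to 4.95 CPM in the saline livers. It was chosen after its values were seen. The labels give no time of collection, so time of day and treatment cannot be told apart for Mup20 or for the genes named beside it.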

How the data were processed

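Liver total RNA from 11 mice (5 FSH, 6 saline) was made into libraries with the NEB Next Ultra kit and read in 100-base pairs on an Illumina HiSeq. The authors deposited 1 table of CPM, reads per gene scaled to the library total, without filtering. The submitters' processing notes name mm10, FastQC 0.11.2, Trim Galore 0.3.3, cutadapt, STAR and RSEM, with no roles. Annotation, strand and the handling of reads that fit several genes are not given in the sources used here, so paralogs, pseudogenes and antisense genes can exchange reads. Dividing by the smallest step gave whole reads for 100% of values (tolerance 0.01 read). RSEM estimates need not be whole, so which output was scaled remains unknown. Identifiers were named without version numbers (35555 of 36788).

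For the 12733 genes whose mean reached 0.5 CPM, FSH and saline were compared by limma (3.58.1, under R 4.3.3; log2 of CPM + 0.5, eBayes, intensity trend, no covariate), adjusted by Benjamini-Hochberg over all genes. Called means an adjusted p under 0.05. The second threshold was an absolute log2 fold change over 1. A fold change on this scale understates that of low genes. Single genes also had an exact two-sided permutation test. As alternatives, edgeR 4.0.16 on the recovered reads called 1435 genes and DESeq2 1.42.0 called 1743; pseudocounts, filters, scalings, variance models, voom, a replicate block and leaving out each library were also tried. Functions were tested on simulated data. The labels do not say that libraries come from separate cages or days, and p-values cover the spread between these 11 livers.

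Named are all 10 members, other Mup rows past the filter and up to 5 called genes per list (or the 2 of smallest p). The 5 genes most like the summed members are also named. Ghr, Bcl6, Cish, Igf1, Igfals, Nr3c1 and Dbp were added after their values were seen. Members and lists were chosen with earlier results of these data known.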

Additional observations from a re-analysis of the deposited data

Results flagged for a closer look

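Of 22 groups of values examined (10 members and their sum, in 2 treatments), 2 held a liver far from the rest, about as many as chance gives at 1 in 20 groups. Mup20 in FSH replicate 2 stood at 244.1 CPM, whereas the other 4 FSH livers lay between 104 and 128 CPM. This liver also had the highest Mup3 (4592 CPM), Mup10 (3163 CPM) and summed member level (8301 CPM) of the FSH group, and without it the log2 difference of Mup20 was -1.11 (limma adjusted p = 0.0008). Mup17 in saline replicate 4 stood at 294.1 CPM, with the other 5 saline livers at 39.0 to 112 CPM. The same liver had the highest Mup10, Mup11 and Mup7 values of its group, and without it the log2 difference of Mup17 was -0.71 (limma adjusted p = 0.453). Leaving out other single livers moved Mup17 either way, to -1.55 without FSH replicate 1 (limma adjusted p = 0.0986) and to -0.58 without FSH replicate 3 (limma adjusted p = 0.576).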

How the results depend on the processing

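The 1 member called, Mup20, was called in 24 of 24 alternatives, with log2 differences from -1.11 to -0.76 and adjusted p from 0.000568 to 0.0415. The number of genes called was 1350, and leaving out 1 library moved it between 803 (without FSH replicate 1) and 1659 (without FSH replicate 6). No member other than Mup20 was called in any alternative. Mup3 turned to 0.04, 0.10, 0.03 and 0.01 without FSH replicate 3, FSH replicate 4, saline replicate 2 and saline replicate 4, and it ranged from -0.27 to 0.10. Mup12 turned to 0.11 and 0.04 without saline replicates 3 and 4, and over the left-out libraries it ranged from -0.29 to 0.11. The 4 calls among factors acting on Mup genes became 2 with no filter on low values, with no intensity trend, and without FSH replicates 1, 2, 3 or 4 or saline replicate 4, and leaving out 1 library gave 2 to 4. Leaving out 1 library also moved members that were not called: Mup1 from 0.29 (without FSH replicate 1) to 0.98 (without saline replicate 4), Mup2 from 0.21 (without saline replicate 1) to 0.43 (without FSH replicate 3), Mup21 from 0.09 (without FSH replicate 2) to 0.34 (without FSH replicate 1), Mup17 from -1.55 to -0.58, and Mup11 from -1.15 to -0.47, Mup7 from -1.13 to -0.56 and Mup10 from -0.89 to -0.50, these last 3 each without FSH replicate 2 and FSH replicate 3. Among other rows, Mup16, Mup18 and Mup19 passed in 1 alternative each, without FSH replicate 2, at adjusted p of 0.0427, 0.0296 and 0.0347, Mup-ps12 passed in 3 (lowest adjusted p 0.0125), Mup-ps14 in 4 (lowest 0.0167) and Mup-ps13 in 0, whereas Mup-ps16 lost its call in 14. The log2 difference of Mup-ps13 ranged from 0.14 to 0.45 over the alternatives. The cause of these changes was not tested.

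No clear sign was seen that the replicate numbers pair the samples, although the values below cannot exclude pairing. Deviations of same-numbered livers correlated at 0.0651, 0.356, 0.0193, 0.137 and -0.0662, and 2 of the 5 FSH livers correlated best with their own number. With the number as a block, which drops saline replicate 5, 1210 genes were called and Mup20 stood at -0.95 (adjusted p = 0.0119), while Mup-ps16 at 0.54 was no longer called. Mup12 rested on the fewest reads of the members, 9 to 46 per library.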
